A study of Mus musculus with 16 samples.

Results

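Megakaryocytes are the marrow cells that shed platelets, and 34 genes known for their work in these cells were described across 16 RNA sequencing libraries of mouse bone marrow. The genes are a list of symbols of megakaryocyte and platelet genes. These symbols were matched to the Ensembl IDs of a count table of 45706 genes, and all 34 were found and passed the low count filter in both fits. The libraries fell into 6 groups by their labels: 3 of Day0_Gata2, 2 of Day0_WT, 2 of Day2_Gata2, 3 of Day2_WT, 3 of Week2_Gata2 and 3 of Week2_WT. The Day0 and Day2 groups were of LSK cells, the lineage-negative, Sca-1 positive, Kit positive fraction that holds the stem cells and early progenitors, and the Week2 groups were of marrow cells labelled CD45.2. The series concerns haploinsufficiency of Gata2, the loss of a single copy of the gene for a zinc finger transcription factor, in marrow challenged by transplanting few sorted cells into irradiated wild-type hosts. The labels name the genotypes as Gata2 and WT only. The labels used here do not give the allele, the age of the mice, how the cells were handled from Day0 until Day2, or whether replicates came from different animals, so the spread behind each p-value may be technical.

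Megakaryocytes arise from stem cells, and a share of stem cells already carry transcripts of this lineage, such as Itga2b, Vwf and Pf4. As the cells mature, GATA, ETS, RUNX and NFE2 factors drive genes for adhesion receptors first and for granule cargo, the microtubule ring and proplatelet release later. Platelets then use these products: the receptors bind von Willebrand factor, collagen and fibrinogen, thrombin receptors and their adaptors pass the signal on, arachidonate is turned into thromboxane, and granules release chemokines and clotting proteins.

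The promoters of 5 genes are shown because these genes moved together between Day0 and Day2 (below): the paired platelet chemokine genes and 3 chains of the von Willebrand factor receptor. Each is the 250 bases before the gene start in RefSeq (GRCm38.p6), written 5′ to 3′ on the strand of the gene. Capitals mark the letters AGATAA, the form AGATAG, the form TGATAA and the form TGATAG (the core that GATA factors bind) and GGAAG (a core of ETS factors), on either strand.
Pf4 (chr5:90772185-90772434, plus strand): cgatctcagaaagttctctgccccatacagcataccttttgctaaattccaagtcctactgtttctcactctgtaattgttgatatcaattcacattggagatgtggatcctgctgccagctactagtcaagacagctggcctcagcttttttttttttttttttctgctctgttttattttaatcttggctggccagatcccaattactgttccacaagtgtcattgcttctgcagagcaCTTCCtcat
Ppbp (chr5:90768268-90768517, plus strand): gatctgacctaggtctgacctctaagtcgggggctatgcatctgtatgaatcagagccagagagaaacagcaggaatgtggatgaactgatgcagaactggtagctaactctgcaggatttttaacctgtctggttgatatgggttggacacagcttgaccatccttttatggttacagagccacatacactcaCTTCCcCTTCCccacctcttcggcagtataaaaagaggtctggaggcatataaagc
Gp1ba (chr11:70638872-70639121, plus strand): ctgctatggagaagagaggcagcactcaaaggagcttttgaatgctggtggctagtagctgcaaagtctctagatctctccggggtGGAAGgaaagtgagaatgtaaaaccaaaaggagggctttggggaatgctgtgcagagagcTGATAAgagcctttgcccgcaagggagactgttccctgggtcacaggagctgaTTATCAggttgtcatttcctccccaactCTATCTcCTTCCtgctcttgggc
Gp5 (chr16:30310782-30311031, minus strand): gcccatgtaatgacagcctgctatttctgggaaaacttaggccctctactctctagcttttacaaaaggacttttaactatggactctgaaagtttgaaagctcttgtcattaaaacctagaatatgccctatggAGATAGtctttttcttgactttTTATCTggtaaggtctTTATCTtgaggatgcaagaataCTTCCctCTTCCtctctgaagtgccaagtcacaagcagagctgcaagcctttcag
Gp9 (chr6:87777820-87778069, plus strand): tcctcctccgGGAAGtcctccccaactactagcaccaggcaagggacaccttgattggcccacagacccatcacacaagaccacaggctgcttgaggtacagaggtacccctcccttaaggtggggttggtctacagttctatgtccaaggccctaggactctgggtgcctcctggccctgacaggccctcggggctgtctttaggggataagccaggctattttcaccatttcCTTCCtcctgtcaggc
Gp1ba and Gp5 held 3 of the GATA letters each, while Pf4, Ppbp and Gp9 held none in this window. All 5 held the ETS letters, once in Pf4 and 2 times in each of the others. RefSeq entries were found for 26 of the 34 genes. The GATA letters stood in 7 of them (26.9%), against 26.5% of all 32851 promoter entries, and the ETS letters in 22 (84.6%), against 64.1% of all entries. TGTGGT, a core of RUNX factors, stood in 3 (11.5%, against 14% of all entries), and TGAGTCA, letters bound by NFE2, in 2 (7.69%, against 4.46%). These matches are a description of the letters in the window and of nothing bound there.

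Total counts were 19.6 to 68.3 M in the LSK libraries and 177 to 321 M at Week2 (M, mega). Of the transcripts that define LSK cells, Kit stood at 409 to 716 CPM (counts scaled to the TMM-adjusted library size) in the LSK libraries, against 16.7 to 60.8 CPM at Week2. Ly6a, which encodes Sca-1, was lower at Day2, at 19.6 to 32.4 CPM, against 56.3 to 69.5 CPM at Day0, and overlapped the Week2 libraries, at 7.29 to 71.9 CPM. Gata2 was not lower in the libraries that carry its name: it had 611, 753 and 677 CPM in Day0_Gata2, against 446 and 329.5 CPM in Day0_WT, and 491 and 737 CPM in Day2_Gata2, against 291, 263 and 259 CPM in Day2_WT. Its log2 fold changes, 0.81 (SE 0.20, edgeR adjusted p = 0.341) at Day0 and 1.18 (SE 0.19, edgeR adjusted p = 0.207) at Day2, did not pass the threshold in the main fit, although the groups did not overlap at either time. Of the 11 alternatives other than leaving out 1 library, 3 called Gata2 higher at Day2 and 0 at Day0. A count over the whole gene does not show which allele the reads came from, so directions below are between libraries labelled Gata2 and libraries labelled WT. The library of fewest counts, Day0_WT replicate 1, was unlike the rest. Across genes, its log2 CPM correlated at r = 0.878 with the other Day0_WT library, against 0.986 or more within the other LSK groups, and 9.33% of its counts lay on 4 repeat-rich genes, against 2.8% to 6.51% in the other LSK libraries. Since Day0_WT has 2 libraries, values without that one are given beside the results it moved most, and without it the log2 fold change of Gata2 at Day0 was 1.05. Ddx3y, a Y-linked gene, put 1 library each of Day0_WT (replicate 2), Day0_Gata2 (replicate 3) and Week2_Gata2 (replicate 3) as female and the others as male.

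Most of the megakaryocyte and platelet genes rose between Day0 and Day2 in LSK cells of both labels. Their summed level was 6432 and 6158 CPM in Day2_Gata2, against 2097, 2303 and 2221 CPM in Day0_Gata2, and 7475, 7700 and 6880 CPM in Day2_WT, against 1926 and 2358 CPM in Day0_WT. Every Day2 library lay above every Day0 library. In the libraries labelled Gata2, 20 of the 34 genes (58.8%) passed an adjusted p of 0.05 in edgeR's quasi-likelihood test as higher, against 4.48% of all genes tested, and 0 as lower, against 4.82% (9.3% in either direction). In WT, 23 (67.6%) were higher, against 11.9% of all genes, and 0 lower, against 17.9% (29.9% in either direction). The median log2 fold change of the 34 genes was 1.87 in Gata2 and 2.18 in WT, where that of all genes was -0.07 and -0.11. In these bulk libraries more cells of the megakaryocyte lineage and more RNA per cell cannot be told apart.

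The 2 time comparisons use different libraries, but they come from 1 fit with a shared estimate of the spread. In them 19 genes were called in both, which is 95% of the calls in Gata2 and 82.6% of those in WT. How many of all genes were called in both was not counted, so no result is read from this overlap. Selp, Thbs1, F5 and F2r were called in WT alone and F2rl2 in Gata2 alone, and 10 genes in neither. F2rl2 and Vwf were called in WT as well without Day0_WT replicate 1, and Thbs1 was not. Whether the rise differed between the labels is tested further down. By the weaker measure of groups that do not overlap, 27 genes (79.4%) were higher at Day2 in Gata2 and 28 (82.4%) in WT, against 25.9% and 24.8% of all genes, and 1 gene, Tubb1, was lower in Gata2, against 34.4%. Without Day0_WT replicate 1, 26 genes were called in Gata2 and 24 in WT. Without Day2_Gata2 replicate 1, which leaves that group with 1 library, 11 were called in Gata2. All Day2 libraries were male, and with sex as a covariate 23 genes were called in Gata2 and 25 in WT. The share of repeat-rich genes did not overlap between Day0 and Day2 and so cannot be told apart from time. With it as a covariate, 15 were called in Gata2 and 8 in WT. The number of all genes called was not the same over these settings, as given in the last section. The main shares of all genes called higher, 4.48% in Gata2 and 11.9% in WT, therefore cannot be set beside these counts. Under all 21 alternatives 11 genes stayed called in Gata2 and 7 in WT, among them Pf4, Ppbp, Serpine2, Itga6, Plek, Ptgs1 and Rab27b in both.

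**Figure D1:**
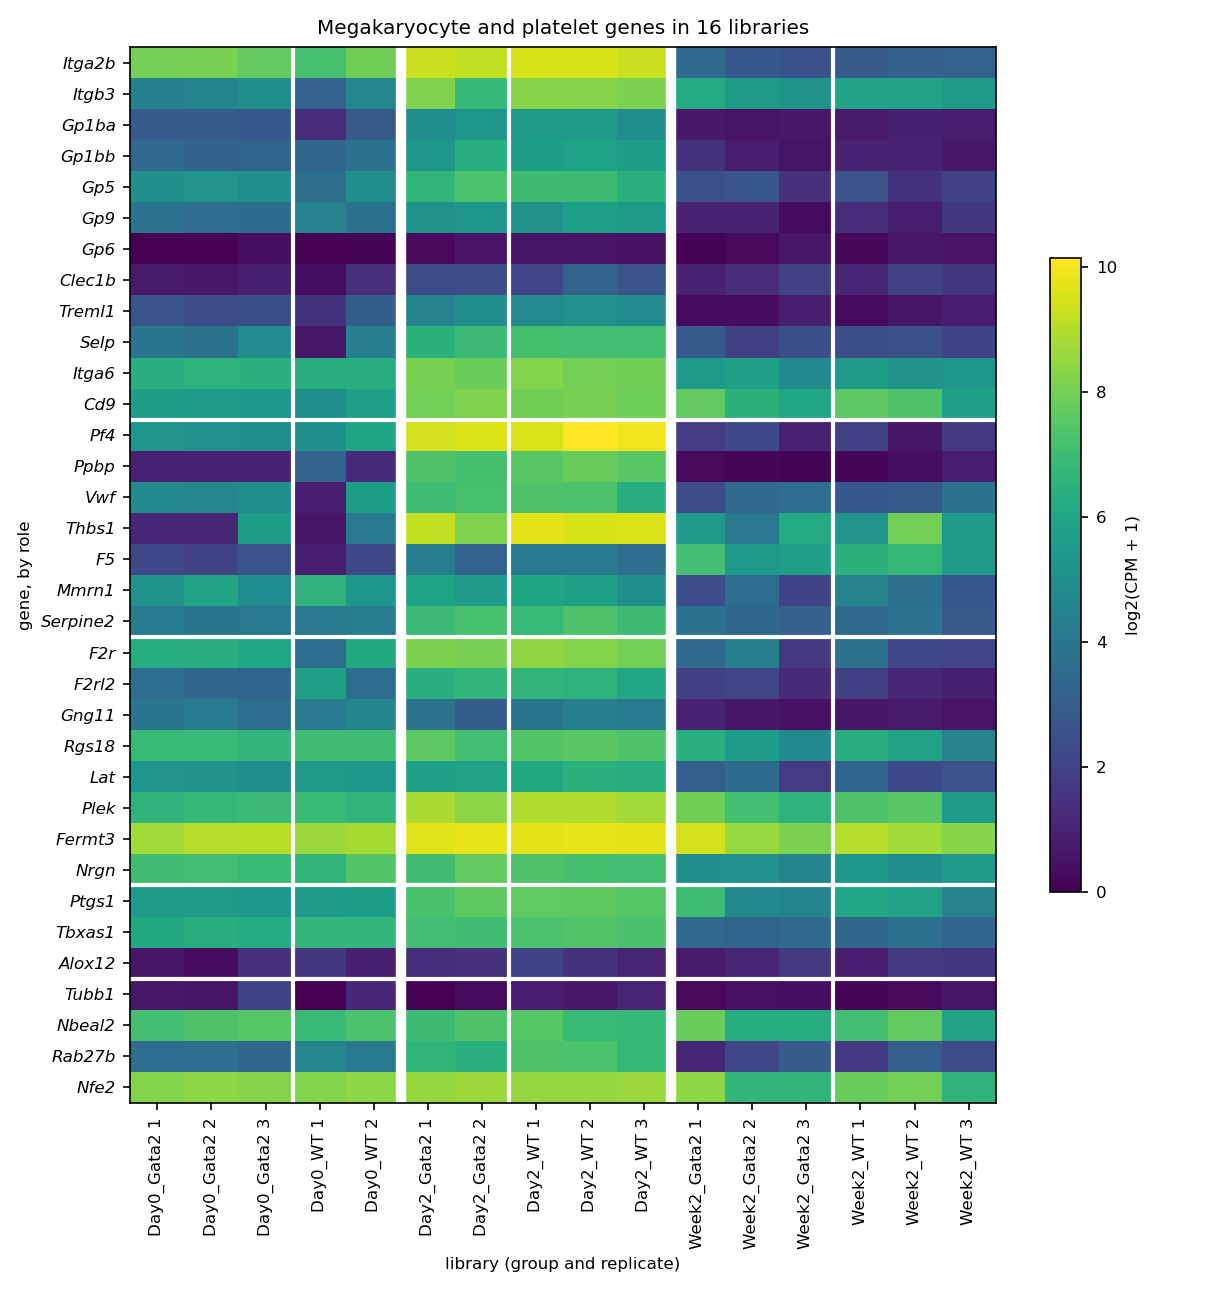
Heat map of the level of the 34 genes (rows, ordered by role and parted by white lines) in the 16 libraries (columns, by group and replicate), in log2(CPM + 1). The Day2 columns are brighter than the Day0 columns in most rows, while Gp6, Alox12 and Tubb1 stay dark in all groups.

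**Figure D2:**
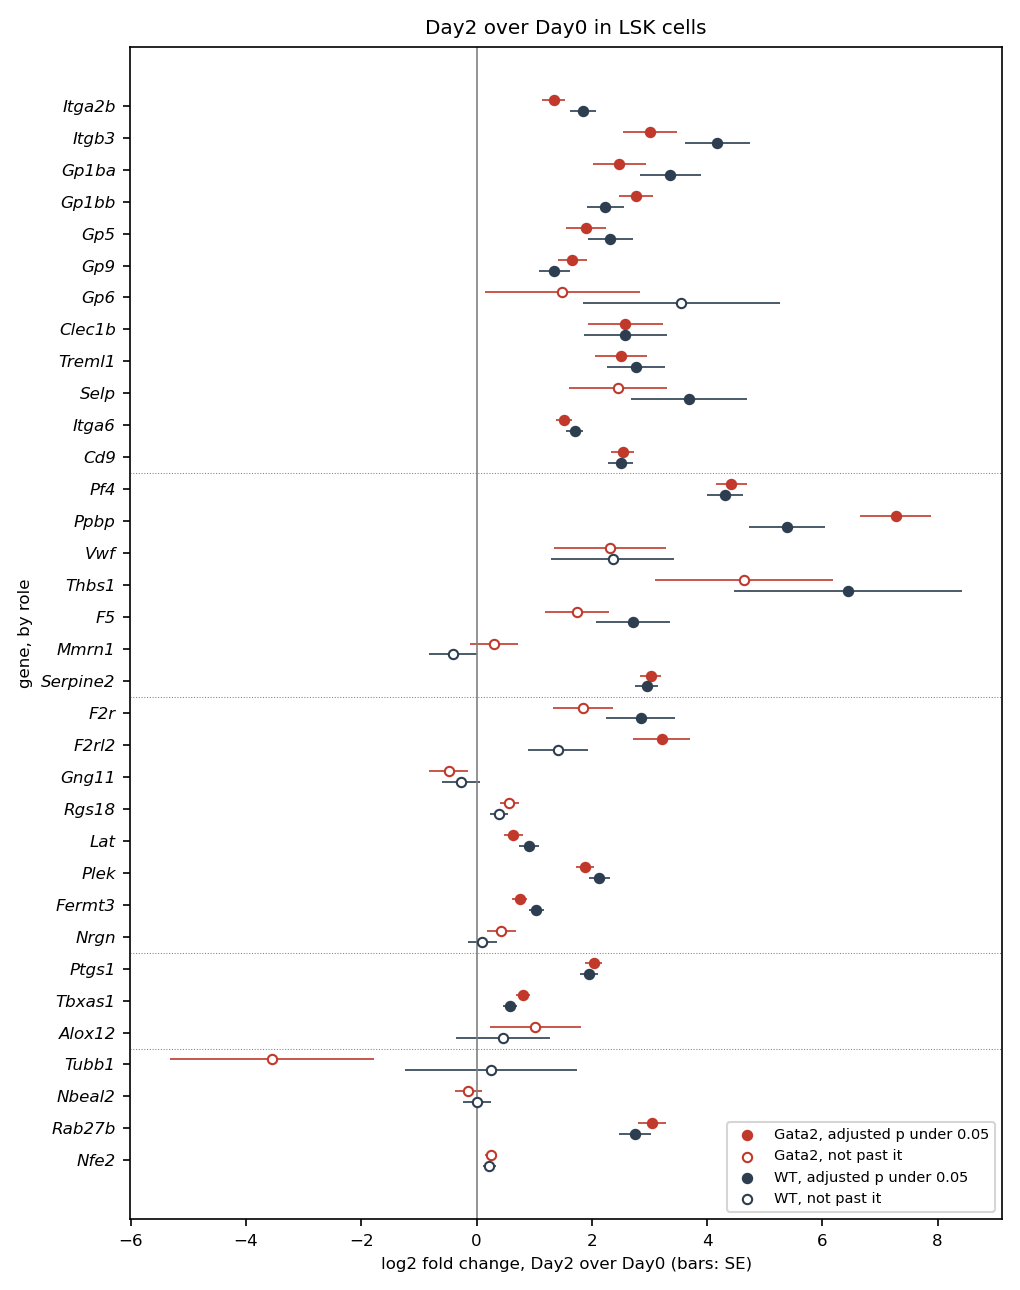
Log2 fold change of each gene, Day2 over Day0, in the libraries labelled Gata2 (red) and WT (dark), with standard error bars. Filled points passed an adjusted p of 0.05, which 20 genes did in Gata2 and 23 in WT. The fitted values of Gp6 and Tubb1 rest on libraries with a count of 0.

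To set beside the counts of each role, 4.48% of all genes were called higher in Gata2 and 11.9% in WT. The role with the largest share of calls was that of the adhesion receptors, by which platelets hold on to the vessel wall and to each other. Of these receptors, 10 of 12 were called higher in Gata2 and 11 of 12 in WT. Their summed level averaged 1732 ± 63.6 CPM in Day2_Gata2 (SD, n = 2), against 488 ± 27.0 CPM in Day0_Gata2 (n = 3), and 1954 ± 152.5 CPM in Day2_WT (n = 3), against 408 ± 128.2 CPM in Day0_WT (n = 2). Itga2b and Itgb3 encode the chains of the fibrinogen receptor. Itga2b, the chain restricted to this lineage and some stem cells, had 649.9 and 588 CPM in Day2_Gata2, against 257, 266 and 209 CPM in Day0_Gata2. In WT it had 739.9, 739 and 637 CPM in Day2_WT, against 146 and 244 CPM in Day0_WT. It rose by 1.34 (SE 0.20, edgeR adjusted p = 0.00434) in the libraries labelled Gata2 and by 1.85 (SE 0.22, edgeR adjusted p = 0.000744) in WT, on the log2 scale used throughout, or 2.54-fold and 3.61-fold. Itgb3, which also pairs with other alpha chains, had 289.6 and 109.7 CPM in Day2_Gata2, against 21.2, 22.8 and 30.4 CPM in Day0_Gata2. Its WT levels were 327, 316 and 284 CPM in Day2_WT, against 8.17 and 25.6 CPM in Day0_WT. Itgb3 rose by 3.01 (SE 0.47, edgeR adjusted p = 0.00485) in the libraries labelled Gata2 and by 4.18 (SE 0.56, edgeR adjusted p = 0.00124) in WT. For both chains the groups did not overlap, and the lowest Day0 value was that of Day0_WT replicate 1. Without that library the WT rise of Itga2b was 1.5. The WT rise of Itgb3 was 3.56 without it and 5.25 without Day0_WT replicate 2. Without Day2_Gata2 replicate 1, neither chain was called in Gata2, and the value of Itgb3 was 2.06.

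The receptor for von Willebrand factor is built from Gp1ba, which binds the ligand, Gp1bb, Gp9 and Gp5, and all 4 genes rose in both labels. Gp1ba had 30.1 and 39.5 CPM in Day2_Gata2, against 6.49, 6.43 and 5.86 CPM in Day0_Gata2. In WT, Gp1ba had 45.9, 42.7 and 31.9 CPM in Day2_WT, against 1.45 and 6.19 CPM in Day0_WT. Gp1ba rose by 2.48 (SE 0.46, edgeR adjusted p = 0.0105) in the libraries labelled Gata2 and by 3.36 (SE 0.53, edgeR adjusted p = 0.00267) in WT. Gp9, which lies 414 kb from Gata2 on chromosome 6, had 36.2 and 39.3 CPM in Day2_Gata2, against 13.5, 11.4 and 10.8 CPM in Day0_Gata2. In WT, Gp9 had 35.7, 51.2 and 45.4 CPM in Day2_WT, against 21.3 and 13.2 CPM in Day0_WT. Gp9 rose by 1.66 (SE 0.25, edgeR adjusted p = 0.00417) in the libraries labelled Gata2 and by 1.35 (SE 0.27, edgeR adjusted p = 0.00666) in WT. Gp5, the chain that thrombin cleaves, had 102 and 152 CPM in Day2_Gata2, against 33.2, 38.4 and 30.4 CPM in Day0_Gata2. In WT, Gp5 had 122, 122 and 85.5 CPM in Day2_WT, against 12.3 and 31.4 CPM in Day0_WT. Gp5 rose by 1.90 (SE 0.35, edgeR adjusted p = 0.00989) in the libraries labelled Gata2 and by 2.32 (SE 0.39, edgeR adjusted p = 0.00322) in WT. Gp1bb had 40.1 and 81.3 CPM in Day2_Gata2, against 10.1, 7.92 and 8.70 CPM in Day0_Gata2. In WT, Gp1bb had 50.6, 57.9 and 49.2 CPM in Day2_WT, against 9.58 and 12.7 CPM in Day0_WT. Gp1bb rose by 2.77 (SE 0.29, edgeR adjusted p = 0.000743) in the libraries labelled Gata2 and by 2.23 (SE 0.32, edgeR adjusted p = 0.00156) in WT. No Day0 value of these 4 genes reached a Day2 value of the same label. The count of Gp1bb is uncertain, since 91.1% of its exon length overlaps Sept5 on the same strand. Day0_WT replicate 1 had the lowest Day0 level of Gp1ba and of Gp5 and the highest of Gp9, and without it the WT rises were 2.67 for Gp1ba, 1.77 for Gp5, 1.71 for Gp9 and 2.02 for Gp1bb. Without Day0_WT replicate 2 the WT rises of Gp1ba and Gp5 were 4.80 and 3.17. In Gata2, the calls of Gp1ba and Gp5 were lost without either Day2_Gata2 library, that of Gp1ba also without Day0_Gata2 replicate 2 or 3, and the rise of Gp1bb was 2.14 without Day2_Gata2 replicate 2.

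The laminin-binding chain Itga6 and the tetraspanin Cd9, both also made by stem cells, rose with little spread between libraries. Itga6 had 264 and 235 CPM in Day2_Gata2, against 81.4, 93.9 and 87.0 CPM in Day0_Gata2. In WT, Itga6 had 307, 256 and 243 CPM in Day2_WT, against 83.2 and 81.8 CPM in Day0_WT. Itga6 rose by 1.51 (SE 0.14, edgeR adjusted p = 0.00032) in the libraries labelled Gata2 and by 1.70 (SE 0.15, edgeR adjusted p = 0.00016) in WT. Cd9 had 249 and 289 CPM in Day2_Gata2, against 50.1, 46.3 and 41.9 CPM in Day0_Gata2. In WT, Cd9 had 248, 267 and 236 CPM in Day2_WT, against 33.0 and 54.9 CPM in Day0_WT. Cd9 rose by 2.54 (SE 0.20, edgeR adjusted p = 0.000173) in the libraries labelled Gata2 and by 2.5 (SE 0.22, edgeR adjusted p = 0.000184) in WT. Among the receptors at lower level, Treml1, a receptor of the granule membrane, had 22 and 31.3 CPM in Day2_Gata2, against 5.37, 4.26 and 4.48 CPM in Day0_Gata2. In WT, Treml1 had 28.3, 34.2 and 28.9 CPM in Day2_WT, against 1.84 and 6.96 CPM in Day0_WT. Treml1 rose by 2.5 (SE 0.45, edgeR adjusted p = 0.00893) in the libraries labelled Gata2 and by 2.77 (SE 0.50, edgeR adjusted p = 0.00474) in WT. Its WT rise was 2.10 without Day0_WT replicate 1 and 4.06 without replicate 2, and its Gata2 call was lost without either Day2_Gata2 library. Clec1b, the receptor for podoplanin, had 3.93 and 4.34 CPM in Day2_Gata2, against 0.679, 0.557 and 0.831 CPM in Day0_Gata2. In WT, Clec1b had 3.35, 8.28 and 5.39 CPM in Day2_WT, against 0.290 and 1.55 CPM in Day0_WT. Clec1b rose by 2.58 (SE 0.65, edgeR adjusted p = 0.0377) in the libraries labelled Gata2 and by 2.58 (SE 0.72, edgeR adjusted p = 0.0258) in WT. That gene was near the threshold: leaving out any single library labelled Gata2 ended its call in Gata2, as did Day2_WT replicate 2 or 3. In WT, leaving out Day2_WT replicate 2 or 3 or Day2_Gata2 replicate 1 ended it. Its WT rise was 1.84 without Day0_WT replicate 1 and 4.28 without replicate 2, both still called.

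Selp, or P-selectin, which granules bring to the surface, had 89.7 and 118 CPM in Day2_Gata2, against 14.9, 13.2 and 28.7 CPM in Day0_Gata2. In WT, Selp had 143, 137 and 133 CPM in Day2_WT, against 0.580 and 20.3 CPM in Day0_WT. Its log2 fold change was 2.45 (SE 0.85, edgeR adjusted p = 0.106) in Gata2, which did not pass, and 3.69 (SE 1.01, edgeR adjusted p = 0.0242) in WT. All Day2 libraries lay above all Day0 libraries, and the spread came from Day0_WT replicate 1, where Selp was at 0.580 CPM: without it the WT value was 2.73 and without replicate 2 it was 7.90, both still called, while leaving out any 1 Day2_WT library ended the call. The collagen receptor Gp6, a gene of late megakaryocytes, was at 0 to 0.486 CPM in all LSK libraries and at 0.0651 to 0.580 CPM at Week2. It was not called in either label, and no fold is given for it.

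Of the granule cargo and clotting proteins, 3 of 7 were called higher in Gata2 and 5 of 7 in WT. This role took 25.1% to 27.5% of the summed level in Day2_Gata2, against 5.96% to 7.37% in Day0_Gata2, and 29.1% to 32.1% in Day2_WT, against 8.02% to 8.22% in Day0_WT. Pf4, a chemokine stored in alpha granules, had 702 and 769 CPM in Day2_Gata2, against 38.5, 34.1 and 30.7 CPM in Day0_Gata2. In WT, Pf4 had 777, 1129 and 966 CPM in Day2_WT, against 33.1 and 63.4 CPM in Day0_WT. The lowest Day2 library stood at more than 10 times the highest Day0 library. Pf4 rose by 4.42 (SE 0.27, edgeR adjusted p = 5.73e-05) in the libraries labelled Gata2 and by 4.31 (SE 0.31, edgeR adjusted p = 9.42e-05) in WT, or 21.4-fold and 19.8-fold. Per kb of exon, Pf4 ranked 1 among the 34 genes at Day2, at a mean of 1020 CPM per kb in Gata2 and 1327 CPM per kb in WT, and 5 and 4 at Day0, at 47.7 and 66.9 CPM per kb. Ppbp, the precursor of a neutrophil-attracting chemokine, lies 2.37 kb from Pf4 on chromosome 5. It had 158 and 139.9 CPM in Day2_Gata2, against 0.918, 0.936 and 1.03 CPM in Day0_Gata2. In WT, Ppbp had 179, 219.6 and 184 CPM in Day2_WT, against 8.37 and 1.37 CPM in Day0_WT. It rose by 7.27 (SE 0.61, edgeR adjusted p = 0.00023) in the libraries labelled Gata2 and by 5.38 (SE 0.66, edgeR adjusted p = 0.00079) in WT. The high Day0 value was that of Day0_WT replicate 1, and the WT rise was 7.11 without that library and 4.55 without replicate 2.

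Serpine2, an inhibitor of thrombin, had 121 and 144 CPM in Day2_Gata2, against 17.8, 14.9 and 16.3 CPM in Day0_Gata2. In WT, Serpine2 had 117, 158 and 123 CPM in Day2_WT, against 16.3 and 18 CPM in Day0_WT. Serpine2 rose by 3.02 (SE 0.18, edgeR adjusted p = 3.86e-05) in the libraries labelled Gata2 and by 2.95 (SE 0.20, edgeR adjusted p = 6.08e-05) in WT, with almost the same values in both labels and no overlap of times. Thbs1, the matrix protein thrombospondin, had 587 and 293 CPM in Day2_Gata2, against 1.12, 1.16 and 50.5 CPM in Day0_Gata2. In WT, Thbs1 had 857, 742 and 782 CPM in Day2_WT, against 0.484 and 16.9 CPM in Day0_WT. Its 2 high Day0 values were those of the female libraries, and its Day2 values lay above them all. The log2 fold change of Thbs1 was 4.64 (SE 1.55, edgeR adjusted p = 0.0954) in Gata2, which did not pass, and 6.45 (SE 1.98, edgeR adjusted p = 0.0361) in WT. Leaving out Day0_WT replicate 1 ended the WT call at 5.52, as did leaving out any Day2 library, and without Day0_WT replicate 2 it was 10.69. F5, coagulation factor V, had 18.3 and 8.2 CPM in Day2_Gata2, against 3.61, 3.25 and 5.04 CPM in Day0_Gata2. In WT, F5 had 16.4, 17.7 and 11.9 CPM in Day2_WT, against 0.822 and 3.72 CPM in Day0_WT. Its log2 fold change was 1.74 (SE 0.56, edgeR adjusted p = 0.0873) in Gata2 and 2.72 (SE 0.64, edgeR adjusted p = 0.014) in WT, where only the second passed. The WT value was 2.01 without Day0_WT replicate 1 and 4.23 without replicate 2, both still called. Vwf, von Willebrand factor, had 127 and 147 CPM in Day2_Gata2, against 27.3, 24.9 and 30.4 CPM in Day0_Gata2. In WT, Vwf had 164, 154 and 82.6 CPM in Day2_WT, against 0.774 and 50.5 CPM in Day0_WT. Neither label passed for Vwf, at 2.31 (SE 0.97, edgeR adjusted p = 0.17) and 2.36 (SE 1.07, edgeR adjusted p = 0.12), although the times did not overlap. Without Day0_WT replicate 1, where Vwf was at 0.774 CPM, the WT value was 1.37 and was called. Mmrn1, a carrier of factor V, had 57.7 and 44.6 CPM in Day2_Gata2, against 35.8, 59.1 and 29.8 CPM in Day0_Gata2. In WT, Mmrn1 had 63.8, 55.4 and 32.4 CPM in Day2_WT, against 94.6 and 39.9 CPM in Day0_WT. The times overlapped for Mmrn1 in both labels, and it was not called.

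**Figure D3:**
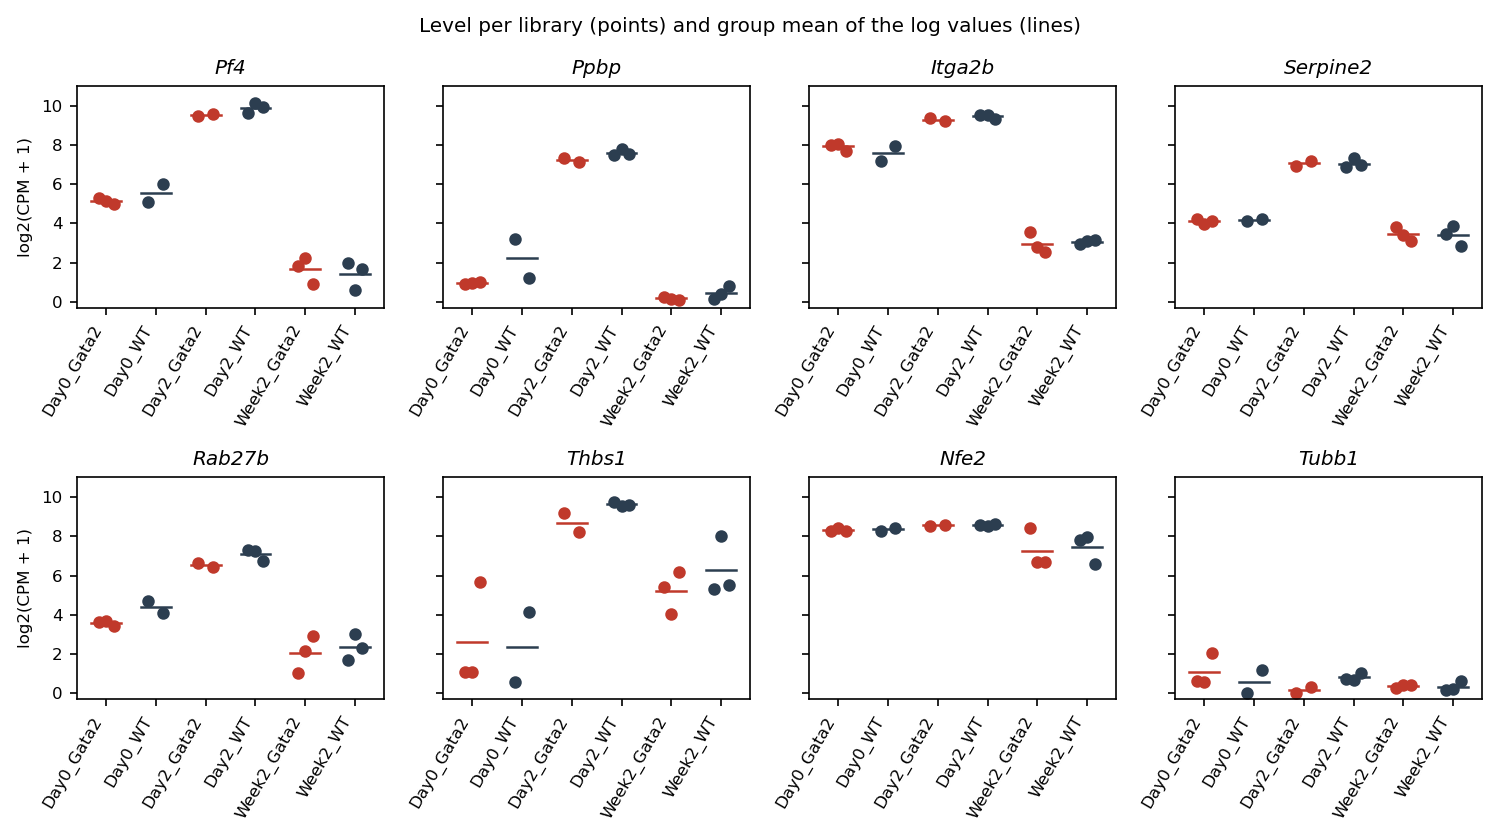
Level of 8 of the genes in each library (points) by group, in log2(CPM + 1), with lines at the group mean of the log values; red is Gata2 and dark is WT. Pf4, Ppbp, Itga2b, Serpine2 and Rab27b are higher at Day2 than at Day0 in every library, Thbs1 is split at Day0, Nfe2 is nearly level in LSK cells and Tubb1 is near 0 in most libraries.

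In the group of thrombin receptors, signalling proteins and adaptors, 4 of 8 genes were called higher in each label. F2r, a thrombin receptor, had 283 and 266 CPM in Day2_Gata2, against 77.6, 83.4 and 67.2 CPM in Day0_Gata2. In WT, F2r had 346, 307 and 251 CPM in Day2_WT, against 11.7 and 71.2 CPM in Day0_WT. Its log2 fold change was 1.85 (SE 0.52, edgeR adjusted p = 0.0565) in Gata2 and 2.85 (SE 0.60, edgeR adjusted p = 0.00877) in WT, and the second alone passed. Without Day0_WT replicate 1, the library at 11.7 CPM, the WT value was 2.05, and without replicate 2 it was 4.70. F2rl2, which on mouse platelets helps thrombin act on another receptor of the family, lies 78.4 kb from F2r on chromosome 13. It had 80.7 and 104 CPM in Day2_Gata2, against 11.5, 9.52 and 8.87 CPM in Day0_Gata2. In WT, F2rl2 had 99.7, 92.5 and 65.3 CPM in Day2_WT, against 53.2 and 11.6 CPM in Day0_WT. The log2 fold change of F2rl2 was 3.21 (SE 0.50, edgeR adjusted p = 0.00476) in Gata2 and 1.41 (SE 0.52, edgeR adjusted p = 0.0649) in WT, where it did not pass. In Day0_WT replicate 1, F2rl2 was high while F2r was low, and without that library the WT value of F2rl2 was 2.85 and was called. Plek, or pleckstrin, a substrate of protein kinase C, had 460.2 and 328 CPM in Day2_Gata2, against 95.9, 107 and 118 CPM in Day0_Gata2. In WT, Plek had 485, 483 and 423 CPM in Day2_WT, against 112 and 101 CPM in Day0_WT. Plek rose by 1.88 (SE 0.16, edgeR adjusted p = 0.000285) in the libraries labelled Gata2 and by 2.13 (SE 0.18, edgeR adjusted p = 0.000152) in WT. Fermt3, a kindlin that turns integrins on in blood cells of many kinds, had 794 and 858 CPM in Day2_Gata2, against 424, 521 and 527 CPM in Day0_Gata2. In WT, Fermt3 had 849, 871 and 853 CPM in Day2_WT, against 389.5 and 442 CPM in Day0_WT. Fermt3 rose by 0.75 (SE 0.13, edgeR adjusted p = 0.00702) in the libraries labelled Gata2 and by 1.04 (SE 0.13, edgeR adjusted p = 0.000954) in WT. Lat, an adaptor below the collagen receptor and the T cell receptor, had 52.7 and 56.4 CPM in Day2_Gata2, against 37.8, 37 and 30.1 CPM in Day0_Gata2. In WT, Lat had 70.3, 89.2 and 78.0 CPM in Day2_WT, against 42.3 and 41.9 CPM in Day0_WT. Lat rose by 0.64 (SE 0.17, edgeR adjusted p = 0.0421) in the libraries labelled Gata2 and by 0.91 (SE 0.17, edgeR adjusted p = 0.0057) in WT. The Gata2 call of Lat was lost without any 1 library of Day0_Gata2 or Day2_Gata2, or without Day2_WT replicate 2 or 3, and that of Fermt3 without either Day2_Gata2 library. Rgs18, a brake on G proteins that is high in platelets, had 133 to 191 CPM at Day2, against 101 to 130.2 CPM at Day0, and was called in neither label. Nrgn, which binds calmodulin, had 131 to 209.7 CPM at Day2, against 98.3 to 171 CPM at Day0, and the G protein subunit Gng11 had 7.0 to 19.3 CPM, against 11.7 to 23.3 CPM. Their times overlapped in both labels.

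Of the enzymes that act on arachidonate, Ptgs1 and Tbxas1 were called higher in both labels. Ptgs1, the cyclooxygenase that aspirin blocks in platelets, had 147 and 197 CPM in Day2_Gata2, against 42.5, 42.8 and 41.4 CPM in Day0_Gata2. In WT, Ptgs1 had 199.5, 197 and 175 CPM in Day2_WT, against 47.4 and 51.0 CPM in Day0_WT. Ptgs1 rose by 2.03 (SE 0.15, edgeR adjusted p = 0.000108) in the libraries labelled Gata2 and by 1.95 (SE 0.16, edgeR adjusted p = 0.000131) in WT. Tbxas1, the thromboxane synthase that takes its product, had 135 and 129 CPM in Day2_Gata2, against 71.5, 80.6 and 74.8 CPM in Day0_Gata2. In WT, Tbxas1 had 152, 165 and 149 CPM in Day2_WT, against 103 and 104 CPM in Day0_WT. The rises of Tbxas1 were smaller, at 0.80 (SE 0.12, edgeR adjusted p = 0.00366) and 0.58 (SE 0.12, edgeR adjusted p = 0.00849). Its Gata2 call was lost without Day2_Gata2 replicate 1. Alox12, the platelet lipoxygenase, stayed at 1.06 to 3.12 CPM at Day2, against 0.279 to 2.08 CPM at Day0, and was not called.

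Rab27b, a GTPase of dense granule release, was the only one of 4 genes of shape, granule formation and transcription called in either label. It had 98.4 and 84.7 CPM in Day2_Gata2, against 11.4, 12.1 and 9.88 CPM in Day0_Gata2. In WT, Rab27b had 156, 153 and 106 CPM in Day2_WT, against 25.2 and 16 CPM in Day0_WT. Rab27b rose by 3.04 (SE 0.24, edgeR adjusted p = 0.000177) in the libraries labelled Gata2 and by 2.75 (SE 0.27, edgeR adjusted p = 0.000306) in WT, with no overlap of times. Nbeal2, needed to form alpha granules, had 111 to 177 CPM at Day2, against 113 to 174 CPM at Day0, and its times overlapped in both labels. Nfe2, the transcription factor of platelet release, was high from the start: it had 374 and 387 CPM in Day2_Gata2, against 307, 338 and 313 CPM in Day0_Gata2. In WT, Nfe2 had 375, 374 and 397 CPM in Day2_WT, against 309 and 346 CPM in Day0_WT. Every Day2 library was above every Day0 library, but the log2 fold changes were 0.25 (SE 0.11, edgeR adjusted p = 0.186) and 0.22 (SE 0.11, edgeR adjusted p = 0.157) and did not pass. Per kb of exon Nfe2 ranked 1 of the 34 genes at Day0, at 106.9 CPM per kb in Gata2 and 109.5 in WT, and 5 and 6 at Day2. Tubb1, the tubulin of the platelet's marginal band and a late target of Nfe2, had 0 and 0.237 CPM in Day2_Gata2, against 0.579, 0.478 and 3.18 CPM in Day0_Gata2. Its WT levels were 0.685, 0.608 and 1.08 CPM in Day2_WT, against 0 and 1.27 CPM in Day0_WT. No fold is given for Tubb1, which was not called and had libraries without a count at both times.

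The labels' effect on the rise itself was tested as the difference between the time effects, Gata2 over WT, and 0 of the 34 genes passed in edgeR (0% of all genes), with DESeq2 and limma voom also at 0. At an unadjusted p under 0.05, 2 of 34 genes (5.88%, against 6.83% of all genes) rose more in Gata2, Ppbp at 1.89 (SE 0.74, edgeR adjusted p = 0.465) and F2rl2 at 1.80 (SE 0.69, edgeR adjusted p = 0.465), and 0 rose less, against 3.53%. Both differences rest on Day0_WT replicate 1, where Ppbp and F2rl2 were high, and were 0.13 and 0.34 without it. The median difference of the 34 genes was -0.10, where that of all genes was -0.06. Itgb3, next in p, had a difference of -1.17 (SE 0.67, edgeR adjusted p = 0.547). Genes called in a single label above are therefore not shown to differ between labels. Leaving out Day0_WT replicate 2, so that Day0_WT is replicate 1 alone, gave 2 genes called higher (5.88%, against 9.54% of all genes) and 10 lower (29.4%, against 21.5%).

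At Day0, 0 of 34 genes were called between Day0_Gata2 and Day0_WT in edgeR (0% of all genes), 0 in limma voom, and 4 as lower in DESeq2 (11.8%, against 1.98% of all genes in DESeq2). The same 4 were the genes with an unadjusted p under 0.05 in edgeR, all lower in Gata2 (11.8%, against 9.17% of all genes), and 0 were higher, against 4.33%. Rab27b had 11.4, 12.1 and 9.88 CPM in Day0_Gata2, against 25.2 and 16 CPM in Day0_WT, which gave a log2 value of -0.89 (SE 0.24, edgeR adjusted p = 0.341). Tbxas1 had 71.5, 80.6 and 74.8 CPM in Day0_Gata2, against 103 and 104 CPM in Day0_WT, at -0.45 (SE 0.12, edgeR adjusted p = 0.341). Both WT libraries were above all 3 libraries labelled Gata2 for these genes. Ppbp, at -2.27 (SE 0.56, edgeR adjusted p = 0.341), and F2rl2, at -1.69 (SE 0.49, edgeR adjusted p = 0.341), rested on the high values of Day0_WT replicate 1, and without that library Ppbp was at -0.51, F2rl2 at -0.22, Rab27b at -0.53 and Tbxas1 at -0.46, with 0 genes called. In 8 genes (23.5%, against 14.2% of all genes) the libraries labelled Gata2 lay below both WT libraries, and in 0 above, against 18.3%. The median log2 fold change was -0.01, against 0.02 for all genes. Without Day0_WT replicate 2, 11 genes were called higher in Gata2 (32.4%, against 25.4% of all genes) and 4 lower (11.8%, against 14.5%).

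At Day2, 0 of 34 genes were called between Day2_Gata2 and Day2_WT by edgeR (0% of all genes), DESeq2 or limma voom. At an unadjusted p under 0.05, 2 genes were lower in Gata2 (5.88%, against 2.79% of all genes) and 0 higher, against 2.8%. Lat had 52.7 and 56.4 CPM in Day2_Gata2, against 70.3, 89.2 and 78.0 CPM in Day2_WT, at -0.54 (SE 0.17, edgeR adjusted p = 0.784). Rab27b had 98.4 and 84.7 CPM, against 156, 153 and 106 CPM, at -0.60 (SE 0.24, edgeR adjusted p = 0.866). The groups did not overlap for either gene. Gng11 came next, with 13.7 and 7.0 CPM in Day2_Gata2, against 14.2, 19.3 and 17.3 CPM in Day2_WT, at -0.71 (SE 0.34, edgeR adjusted p = 0.92). In 9 genes (26.5%, against 11.1% of all genes) both libraries labelled Gata2 lay below all 3 WT libraries: Selp, Pf4, Ppbp, Thbs1, Gng11, Lat, Tbxas1, Tubb1 and Rab27b. In 0 genes they lay above, against 9.96%. The log2 fold change was negative in 26 of 34 genes, with a median of -0.20, against 0.00 for all genes. Rab27b, Lat, Gng11, Tbxas1 and Ppbp were below WT without overlap at Day0 too, with different libraries at the 2 times. How many of all genes were below WT at both times was not counted, so no result is read from these genes. The Day0 value of Ppbp was -0.51 without Day0_WT replicate 1.

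At Week2 the summed level of the 34 genes was 2365, 1159 and 946 CPM in Week2_Gata2, against 1749, 1921 and 915 CPM in Week2_WT. No gene passed between the labels in edgeR (0% of all genes), whether adjusted or at an unadjusted p under 0.05 (0.0987% of all genes higher and 0.14% lower), and DESeq2 also gave 0. Limma voom with quality weights called 7: Gp5, F2r, F2rl2 and Lat as higher and Gp6, Ppbp and Thbs1 as lower in Gata2. These are 11.8% and 8.82% of the 34 genes, against 12.3% higher and 20.7% lower of all genes in that fit. Gp1ba was the 1 gene (2.94%, against 0.737% of all genes) without overlap, at 0.632, 0.495 and 0.592 CPM in Week2_Gata2, against 0.671, 0.867 and 0.692 CPM in Week2_WT, or -0.38 (SE 0.61, edgeR adjusted p = 1). The 3 genes of lowest p were Thbs1, Mmrn1 and Ppbp. Thbs1 had 42.1, 15.7 and 71.9 CPM in Week2_Gata2, against 38.3, 255 and 45.3 CPM in Week2_WT, at -1.39 (SE 0.78, edgeR adjusted p = 1). Its high value was that of Week2_WT replicate 2, and without that library the log2 fold change was 0.12. Mmrn1 had 4.25, 11.6 and 3.11 CPM in Week2_Gata2, against 22.5, 12.4 and 5.58 CPM in Week2_WT, at -1.09 (SE 0.62, edgeR adjusted p = 1). Ppbp had 0.209, 0.121 and 0.0829 CPM in Week2_Gata2, against 0.114, 0.312 and 0.739 CPM in Week2_WT, at -1.50 (SE 0.88, edgeR adjusted p = 1). All 3 overlapped between the labels.

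The Week2 libraries are of another cell population and were scaled apart, so their levels are set beside those of LSK cells with no test. Pf4 stood at 0.541 to 3.75 CPM at Week2 and Itga2b at 4.85 to 10.7 CPM. Per kb of exon, Fermt3 ranked 1 of the 34 genes at Week2 in both labels, at 279 to 722 CPM. Nfe2, at 96.5 to 340.4 CPM, ranked 2 in Week2_Gata2 and 3 in Week2_WT, and Cd9, at 55.3 to 207 CPM, ranked 3 and 2. Plek ranked 4, at 44.6 to 248 CPM. F5 was at 42.5 to 137 CPM at Week2, above the 0.822 to 18.3 CPM of the LSK libraries. The neutrophil marker Ngp was at 4655 to 23099 CPM and the B cell marker Cd79a at 766 to 1563 CPM in the same libraries.

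**Figure D4:**
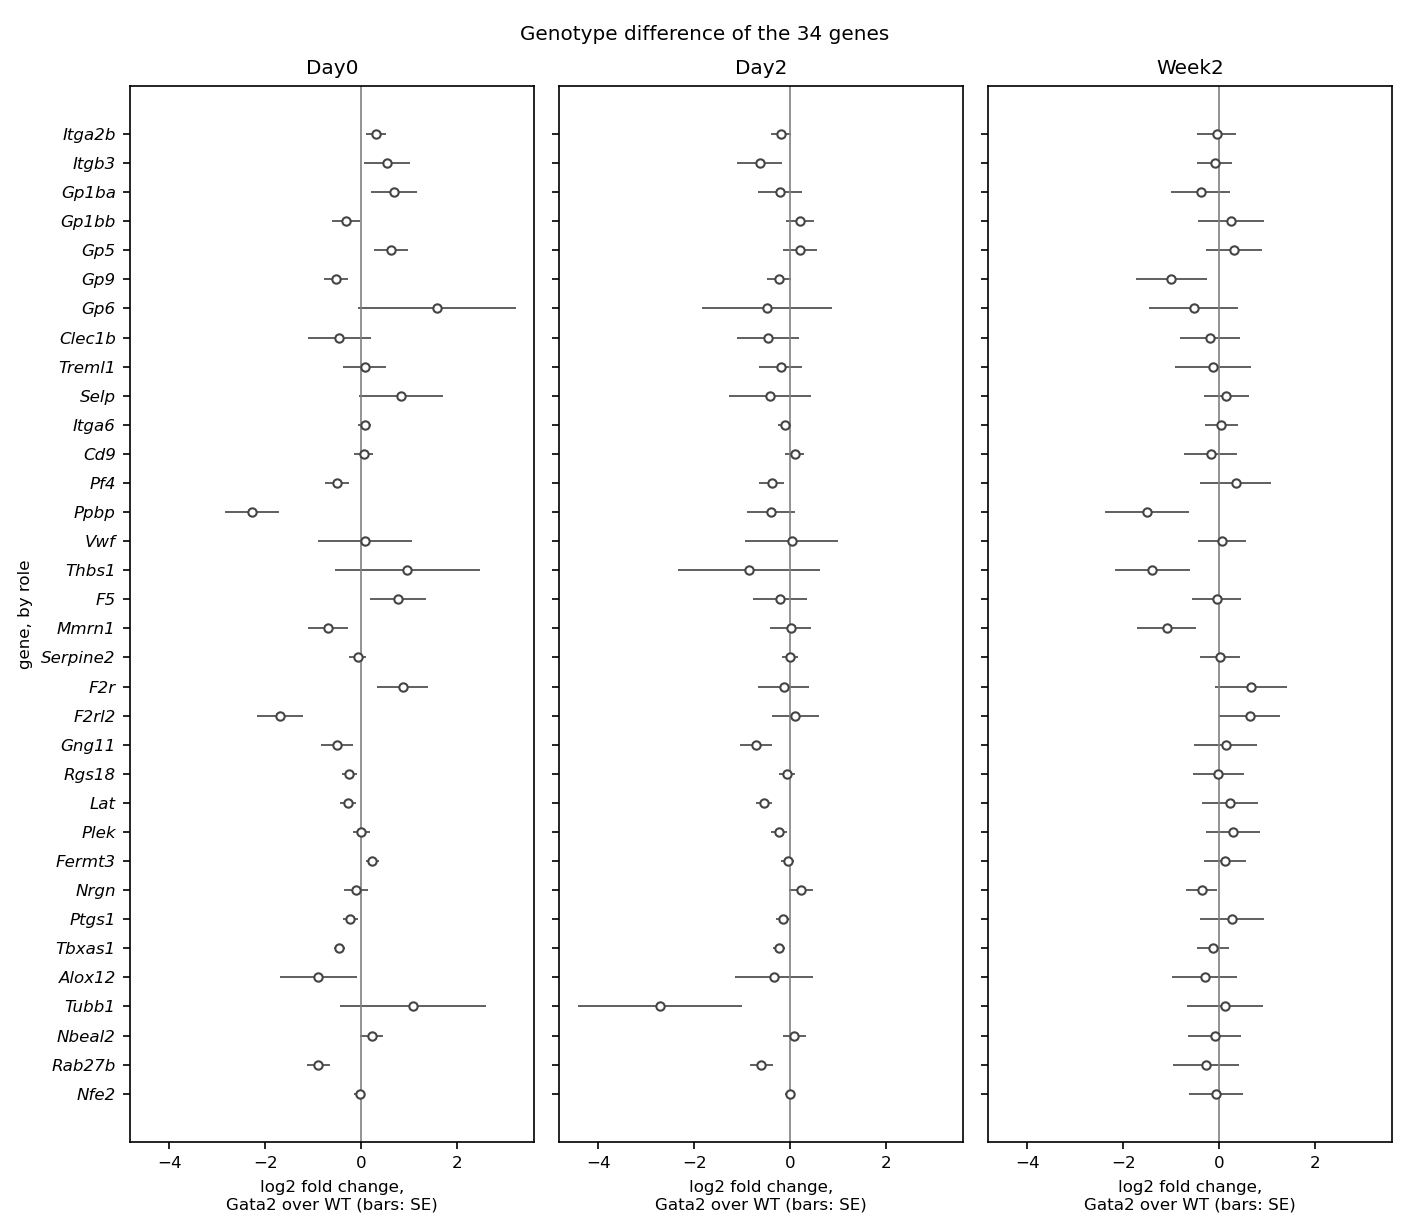
Log2 fold change of each of the 34 genes, Gata2 over WT, at Day0, Day2 and Week2, with standard error bars. No gene passed an adjusted p of 0.05 at any time, and at Day2 26 of the 34 points lie below 0.

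Genes of the same pathway outside the 34 were called in both directions. The shares of all genes called, to set beside the counts of each list, were 4.48% higher and 4.82% lower in Gata2 and 11.9% and 17.9% in WT. Of 13 transcription factors of the lineage, 2 were called higher and 1 lower in Gata2, and 2 higher and 4 lower in WT, with median log2 fold changes of 0.04 in Gata2 and -0.05 in WT. Fli1, the ETS factor of megakaryocytes, had 201 and 226 CPM in Day2_Gata2, against 131, 138 and 136 CPM in Day0_Gata2. In WT, Fli1 had 221, 198 and 175 CPM in Day2_WT, against 97.6 and 133 CPM in Day0_WT. Fli1 rose by 0.66 (SE 0.16, edgeR adjusted p = 0.0315) in the libraries labelled Gata2 and by 0.78 (SE 0.16, edgeR adjusted p = 0.00895) in WT. Its Gata2 call was lost without any 1 library of Day0_Gata2 or Day2_Gata2, or without Day2_WT replicate 2. Gfi1b, a repressor needed in this lineage and in red cells, had 162 and 249 CPM in Day2_Gata2, against 41.3, 37.1 and 62.4 CPM in Day0_Gata2. In WT, Gfi1b had 179.9, 156 and 144 CPM in Day2_WT, against 12.4 and 66.3 CPM in Day0_WT. It rose by 2.13 (SE 0.53, edgeR adjusted p = 0.037) in Gata2 and by 2.01 (SE 0.58, edgeR adjusted p = 0.0288) in WT. The WT value was 1.24 without Day0_WT replicate 1 and 3.70 without replicate 2. The Gata2 call of Gfi1b was lost without any 1 library of Day0_Gata2, Day2_Gata2 or Day2_WT. Its WT call was lost without any 1 Day2_WT library or without Day2_Gata2 replicate 1. Zfpm1, the partner of GATA factors known as FOG, moved the other way: it had 27.4 and 87.1 CPM in Day2_Gata2, against 168, 198 and 186 CPM in Day0_Gata2. In WT, Zfpm1 had 48.7, 25.1 and 27.8 CPM in Day2_WT, against 166 and 212 CPM in Day0_WT. Its log2 fold changes were -1.68 (SE 0.46, edgeR adjusted p = 0.0494) and -2.48 (SE 0.43, edgeR adjusted p = 0.0039). The Gata2 value of Zfpm1 was -2.77 to -1.16 over single libraries left out, and its call was lost without Day2_Gata2 replicate 1, any 1 Day0_Gata2 library, or Day2_WT replicate 2 or 3. Lyl1 fell by 1.61 in WT (SE 0.32, edgeR adjusted p = 0.00672) and Ldb1 by 0.47 (SE 0.11, adjusted p = 0.0133). Lyl1 was at -1.16 without Day0_WT replicate 1. Mef2c, the last of the 4, was called lower in WT, at -0.74, but not without Day0_WT replicate 1, which held 483 CPM, against 278 CPM in replicate 2. Gata1, named for its role, was not called, at 39.4 to 59.4 CPM at Day2, against 33.2 to 63.3 CPM at Day0.

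Of 14 other platelet receptors, 4 were called higher and 1 lower in Gata2, and 6 higher and 2 lower in WT. The ADP receptor P2ry1 had 21.3 and 18.5 CPM in Day2_Gata2, against 8.15, 7.49 and 9.26 CPM in Day0_Gata2. In WT, P2ry1 had 25.9, 27.9 and 20.1 CPM in Day2_WT, against 9.14 and 9.15 CPM in Day0_WT. P2ry1 rose by 1.26 (SE 0.24, edgeR adjusted p = 0.0109) in the libraries labelled Gata2 and by 1.43 (SE 0.25, edgeR adjusted p = 0.00419) in WT. The thromboxane receptor Tbxa2r rose by 1.02 (SE 0.21, edgeR adjusted p = 0.0155) and by 0.93 (SE 0.22, edgeR adjusted p = 0.0129), and the beta chain Itgb1 by 0.60 (SE 0.13, edgeR adjusted p = 0.0218) and by 0.83 (SE 0.14, edgeR adjusted p = 0.00315). F2rl3, the receptor through which thrombin acts on mouse platelets, rose by 0.77 (SE 0.21, edgeR adjusted p = 0.048) and by 1.64 (SE 0.22, edgeR adjusted p = 0.00124). Its Gata2 call was lost without any 1 library of Day0_Gata2, Day2_Gata2 or Day2_WT. Those of P2ry1, Tbxa2r and Itgb1 were each lost without some single libraries, among them Day0_Gata2 replicate 1 and replicate 2. Esam, a junction protein of platelets that also marks stem cells, was lower, at -1.18 (SE 0.20, edgeR adjusted p = 0.00664) and -0.81 (SE 0.19, edgeR adjusted p = 0.0136). The prostacyclin receptor Ptgir and the inhibitory receptor Mpig6b were called higher in WT alone, at 2.37 (SE 0.59, edgeR adjusted p = 0.0165) and 4.29 (SE 1.09, edgeR adjusted p = 0.0187). Without Day0_WT replicate 1 these WT values were 1.61 and 7.11. Without replicate 2 they were 4.20 and 3.19. Mpig6b had raw counts of 7 and 1 in Day0_WT replicates 1 and 2, against 144, 166 and 160 in Day2_WT. The size of its rise is therefore uncertain. Cd36 was called lower in WT, at -2.43 (SE 0.74, edgeR adjusted p = 0.0357), but was at -0.21 without Day0_WT replicate 1.

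Of 14 platelet signalling genes, 3 were called higher and 0 lower in Gata2, and 7 higher and 2 lower in WT. Rap1b, the small GTPase that carries the signal to integrins, had 816 and 743 CPM in Day2_Gata2, against 249.5, 212 and 228 CPM in Day0_Gata2. In WT, Rap1b had 804, 841 and 677 CPM in Day2_WT, against 286 and 227 CPM in Day0_WT. Rap1b rose by 1.76 (SE 0.15, edgeR adjusted p = 0.000224) in the libraries labelled Gata2 and by 1.59 (SE 0.16, edgeR adjusted p = 0.000328) in WT. Lcp2, an adaptor that works with Lat, rose by 1.2 (SE 0.16, edgeR adjusted p = 0.00267) and by 1.30 (SE 0.17, edgeR adjusted p = 0.00116). Pde3a, a phosphodiesterase that holds cyclic AMP down in platelets, rose by 4.62 (SE 0.54, edgeR adjusted p = 0.00117) and by 3.31 (SE 0.59, edgeR adjusted p = 0.0042), and stood at 3.20 to 7.60 CPM at Day2, against 0.180 to 0.677 CPM at Day0. Rasgrp2, which activates Rap1b, and the G protein subunit Gnaq were lower in WT, at -0.93 (SE 0.16, edgeR adjusted p = 0.00369) and -1.84 (SE 0.28, edgeR adjusted p = 0.00233). Plcg2, Tln1, Btk and Pik3cb were called higher in WT alone, at 0.95, 0.97, 0.55 and 2.30, and Tln1 and Btk were not called without Day0_WT replicate 1, while Pik3cb was then at 1.43 and without replicate 2 at 4.81.

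Of 16 genes of granules and the cytoskeleton, 2 were called higher and 0 lower in Gata2, and 5 higher and 1 lower in WT. The granule tetraspanin Cd63 rose by 1.19 (SE 0.19, edgeR adjusted p = 0.00597) and by 1.48 (SE 0.21, edgeR adjusted p = 0.00144), and the kinase of myosin light chain Mylk by 2.51 (SE 0.50, edgeR adjusted p = 0.0139) and by 3.31 (SE 0.57, edgeR adjusted p = 0.00395). The WT rise of Mylk was 2.56 without Day0_WT replicate 1 and 4.96 without replicate 2. Its Gata2 call was lost without any 1 library of Day0_Gata2 or Day2_Gata2. Myh9, Flna and Stxbp2 were called higher in WT alone, at 0.64, 0.53 and 0.38, and Pdgfa lower, at -2.34. The calls of Flna, Stxbp2 and Pdgfa were lost without Day0_WT replicate 1 and those of all 4 without Day2_WT replicate 1. Over the 4 lists, leaving out 1 library ended 0 to 9 of the 13 calls in Gata2, most without Day2_Gata2 replicate 1, and 1 to 10 of the 29 in WT, most without Day2_WT replicate 2. Without Day0_WT replicate 1, 7 of the WT calls were lost. No gene of these lists passed between the labels at Day0, Day2 or Week2 in edgeR. At unadjusted p the closest were Ptgir at Day0, 2.37 (SE 0.59, edgeR adjusted p = 0.341), F2rl3 at Day0, 0.71 (SE 0.21, edgeR adjusted p = 0.341), Itga2 at Day2, -1.53 (SE 0.56, edgeR adjusted p = 0.832), and Esam at Day2, -0.48 (SE 0.20, edgeR adjusted p = 0.868). At Week2 they were P2ry12, 0.89 (SE 0.59, edgeR adjusted p = 1), and Cd226, 0.93 (SE 0.79, edgeR adjusted p = 1). For the difference between the time effects they were Gnaq, 1.24 (SE 0.40, edgeR adjusted p = 0.465), and F2rl3, -0.87 (SE 0.30, edgeR adjusted p = 0.465).

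Markers of other cells moved between the same Day0 and Day2 libraries. The summed level of 6 T and NK cell markers was 0.0988 to 0.848 CPM in Day2_Gata2, against 8.72 to 9.20 CPM in Day0_Gata2, and 0 to 1.11 CPM in Day2_WT, against 7.64 to 12 CPM in Day0_WT, with Cd3e at 0 in all Day2 libraries. The sum of 6 B cell markers was 19.3 to 28.4 CPM in Day2_Gata2, against 59.9 to 87.1 CPM in Day0_Gata2, and 18.4 to 30.3 CPM in Day2_WT, against 55.9 to 133 CPM in Day0_WT. These sums were lower at Day2 in every library. The sum of 8 erythroid markers was 21.7 to 30.7 CPM in Day2_Gata2, against 50.3 to 77.1 CPM in Day0_Gata2, and 35.5 to 43.1 CPM in Day2_WT, against 60.2 to 84.8 CPM in Day0_WT. That of 6 mast cell and basophil markers was 179.8 to 201 CPM in Day2_Gata2, against 366 to 603 CPM in Day0_Gata2, and 148 to 197 CPM in Day2_WT, against 328 to 546 CPM in Day0_WT. Both sums were lower in every Day2 library of either label. Among the 8 erythroid markers, 2 (25%) were called lower in Gata2 and 6 (75%) in WT, against 4.82% and 17.9% of all genes. In both labels 0 were called higher, against 4.48% and 11.9%. Hbb-bt went the other way and was not called. Its mean was 8.69 CPM in Day2_Gata2, against 3.70 CPM in Day0_Gata2, and 20 CPM in Day2_WT, against 3.73 CPM in Day0_WT. The mast cell and basophil sum fell mostly with Prss34, at 7.63 to 31.1 CPM at Day2, against 181 to 449 CPM at Day0. Mcpt8, Fcer1a and Ms4a2 also had lower means at Day2 in both labels. Called lower were 2 of the 6 markers (33.3%) in Gata2 and 3 (50%) in WT, against 4.82% and 17.9% of all genes. In each label 1 was called higher (16.7%, against 4.48% in Gata2 and 11.9% in WT). Of the other members of that list, Gzmb was called higher in both labels, at 28.1 to 45.3 CPM, against 0.387 to 4.23 CPM, and Cpa3 was at 72.8 to 96.7 CPM, against 41.7 to 71.3 CPM, and was not called. Of the 6 stem and progenitor markers, 3 (50%) were called lower in each label, against 4.82% of all genes in Gata2 and 17.9% in WT, and their sum was 1173 to 1391 CPM in Day2_Gata2, against 1882 to 2137 CPM in Day0_Gata2, and 1291 to 1357 CPM in Day2_WT, against 1607 to 1663 CPM in Day0_WT. Among them, Flt3 stood at 68.6 to 126 CPM at Day2, against 447 to 556 CPM at Day0.

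Of 8 neutrophil markers, 1 was called higher in Gata2 (12.5%, against 4.48% of all genes) and 5 in WT (62.5%, against 11.9%), and 0 were called lower. Their sum was 5962 to 8487 CPM in Day2_Gata2, against 4452 to 7058 CPM in Day0_Gata2, and 5617 to 8231 CPM in Day2_WT, against 1800 to 4593 CPM in Day0_WT, with an overlap of times in Gata2. That of 6 monocyte and macrophage markers was 728 to 743 CPM in Day2_Gata2, against 226 to 527 CPM in Day0_Gata2, and 694 to 934 CPM in Day2_WT, against 321 to 330.1 CPM in Day0_WT. Endothelial cells share Vwf, Selp and Thbs1 with platelets. The sum of 7 endothelial and stromal markers was 187.5 to 207 CPM in Day2_Gata2, against 141 to 155 CPM in Day0_Gata2, and 191 to 210.3 CPM in Day2_WT, against 131 to 140.1 CPM in Day0_WT, higher in every Day2 library. Most of it was Pecam1, which platelets also carry, at 168 to 192 CPM at Day2, against 89.8 to 124 CPM at Day0, called higher in both labels. Kdr, at 5.24 to 9.86 CPM, against 2.03 to 4.69 CPM, was called higher in WT. Cdh5 was at 0 to 0.160 CPM, against 0.176 to 0.838 CPM, and was not called. The list was mixed: 2 of 7 were called higher and 2 lower in WT (28.6% each, against 11.9% and 17.9% of all genes). In Gata2, 1 was called higher and 1 lower (14.3% each, against 4.48% and 4.82%). The mean of Cxcl12 was 0.118 CPM in Day2_Gata2, against 11.3 CPM in Day0_Gata2, and 0.0133 CPM in Day2_WT, against 22.9 CPM in Day0_WT. At Week2 the neutrophil sum ranged from 17759 to 92225 CPM in Week2_Gata2 and from 18675 to 78079 CPM in Week2_WT, and the erythroid sum from 22.1 to 2886 CPM and from 27.1 to 8726 CPM. The part of these other cells in the changes of the 34 genes was not tested.

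**Figure D5:**
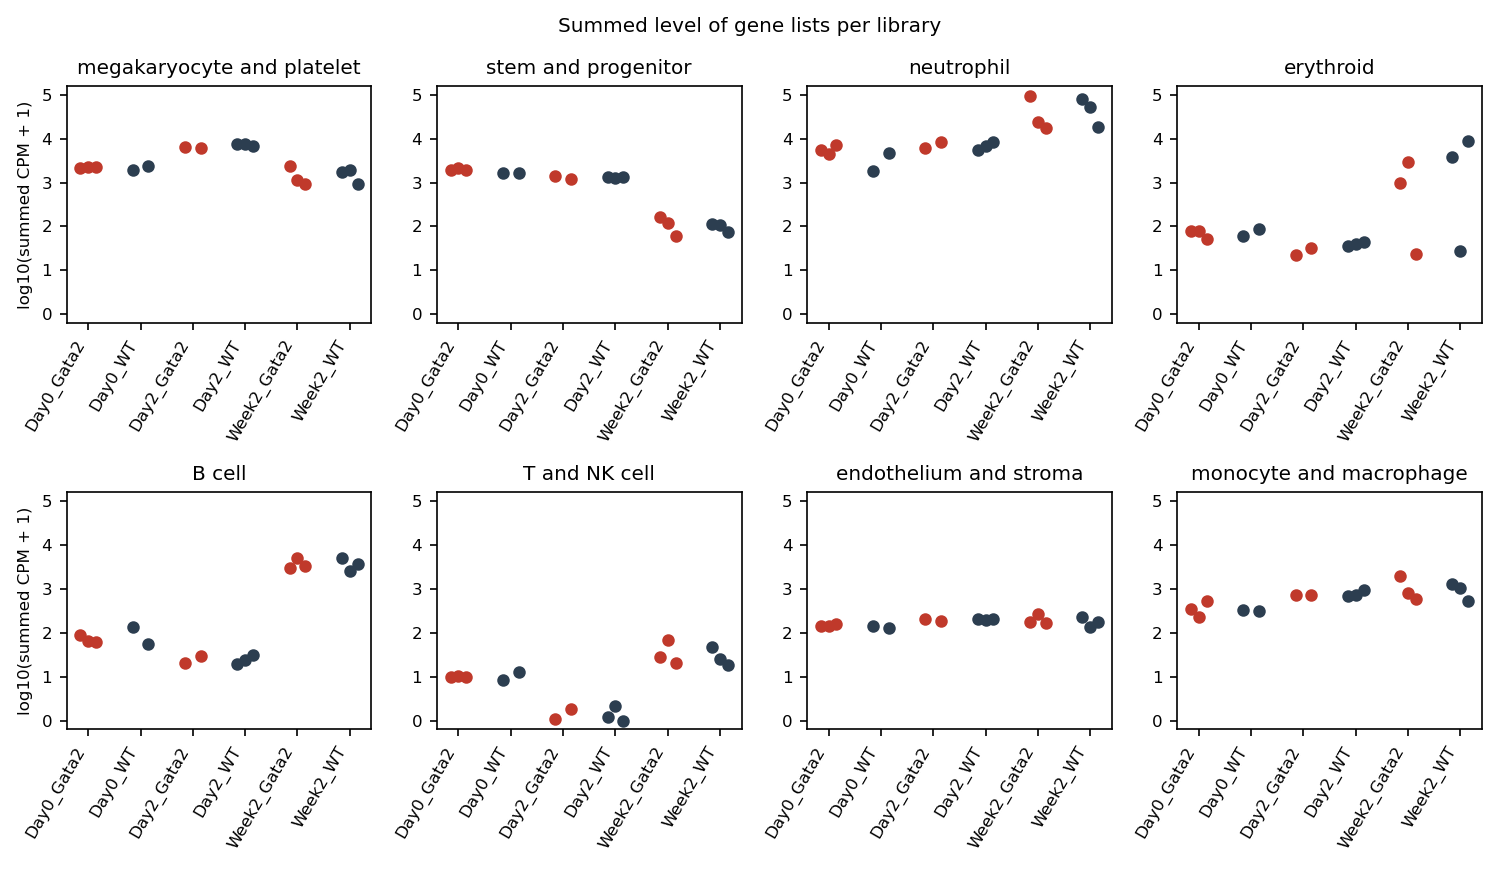
Summed level of 8 gene lists in each library (points) by group, in log10(summed CPM + 1); red is Gata2 and dark is WT. The megakaryocyte and platelet sum is highest at Day2 in both labels, while the T and NK cell, B cell and erythroid sums are lowest there among LSK libraries.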

How the data were processed

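Gene counts of 16 libraries were analysed as deposited by the authors, as whole numbers with no normalization in 1 table. The submitters' processing notes name Trimmomatic 0.38 for trimming, STAR 2.5.2b for alignment and the mouse build mm10. How the authors counted reads, and whether by strand, is not given in the sources used here. Overlapping genes may therefore share reads. RNA was taken from lineage-negative cells and made into libraries with either a stranded or a low-input kit, per the labels' protocols, which do not say which library had which.

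Symbols came from GENCODE M21, which named 45143 of 45706 IDs. In R 4.3.3, edgeR 4.0.16 gave TMM scaling, its filterByExpr low count filter and the robust quasi-likelihood test, Benjamini-Hochberg adjusted over 19162 genes in the 10 LSK libraries (1 fit of 4 groups) or 36485 genes in the 6 Week2 libraries, with genes called at an adjusted p under 0.05. The fits were tested on simulated counts. The 6 comparisons were Gata2 over WT at Day0, Day2 and Week2, Day2 over Day0 in each label, and the difference of those time effects. Levels are CPM with TMM scaling. The edgeR test gives no standard error, so SE is the absolute log2 fold change divided by the square root of the test's F statistic. Genes were named by a rule: Gata2, every one of the 34 genes called in a comparison, the 3 of lowest p in each, and, of 58 other pathway genes, those called and the pair of lowest p. Other genes of the 34 are given by their levels, and marker genes as sums or ranges. Of the pathway genes, 1 is not reported here. The 34 genes, the other lists and the tests were chosen with earlier results of these data known.

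As alternatives, the fits were repeated with RLE or upper quartile scaling, without the filter, with genes of at least 5 CPM in 2 libraries, and with DESeq2 1.42.0, limma 3.58.1 (voom, quality weights), 1 fit of all 16 libraries, the groups compared alone, sex (a library with over 10 CPM of Ddx3y counting as male), the share of repeat-rich genes, the replicate number as a block and each library left out in turn. Where that left 1 library in a group, it was taken to vary like the other groups. Replicates differed by more than sampling noise (the lowest chi-square per degree of freedom was 28.4) and were kept apart. Promoter letters were read in RefSeq entries of GRCm38.p6.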

Additional observations from a re-analysis of the deposited data

How the results depend on the processing

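Rises of the megakaryocyte and platelet genes over time kept their direction under most alternatives, while their number called did not. Main counts were 20 in Gata2 and 23 in WT. In WT the count was 15 with limma voom, 15 with the libraries of the 2 groups alone and 8 with the share of repeat-rich genes as a covariate, and 19 to 25 under the other settings. That share did not overlap between Day0 and Day2, so this covariate and time cannot be told apart. In Gata2 the counts were 15 to 26. Over single libraries left out, the counts were 11 to 26 in Gata2 and 20 to 24 in WT. Under all 21 alternatives, the 11 genes that stayed called in Gata2 were Gp1bb, Gp9, Itga6, Cd9, Pf4, Ppbp, Serpine2, F2rl2, Plek, Ptgs1 and Rab27b.

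Between labels, the members called at Day0 were 4 lower with DESeq2, and 0 to 11 higher and 0 to 4 lower over libraries left out. At Day2 they were 0 throughout. At Week2 limma voom called 4 higher and 3 lower, and single libraries left out gave 0. The difference of time effects gave 0 to 2 higher and 0 to 10 lower, the highest without Day0_WT replicate 2. Over all genes, calls over time without single libraries were 190 to 2296 higher and 309 to 3053 lower in Gata2 (858 and 924 with all) and 1274 to 5771 higher and 1917 to 6615 lower in WT (2286 and 3434 with all), and the higher calls in WT were 60 with the repeat share, 424 with voom and 490 with the groups alone. The mean summed level of Day2_Gata2 was 6071 CPM without TMM scaling, against 6295 with it.

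Values that turned sign with the repeat share were, over time in WT, Clec1b at -0.56, Gata2 at 0.13, Cd36 at 1.30, Pik3cb at -0.37, Mef2c at 0.41, Pdgfa at 2.03 and Stxbp2 at -0.03, Gata2 over time in Gata2 at 0.15, and the difference of F2rl2 at -0.02. With voom, Mmrn1 at Week2 was 0.38. Over single libraries left out, Gata2 over time in Gata2 was -0.49 to 0.04 (positive without Day2_Gata2 replicate 1). At Week2, Gata2 was -0.30 (without Week2_Gata2 replicate 1) to 0.68, Cd226 -0.20 (without Week2_Gata2 replicate 2) to 1.75 and Thbs1 -1.95 to 0.12 (without Week2_WT replicate 2). The cause was not tested.

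Same-numbered libraries did not all deviate together (correlations of -0.765 to 0.72), so the replicate numbers were not taken as pairs; with the number as a block, 18 genes were called over time in Gata2, 20 in WT and 0 between labels. Over all genes the block gave 356 higher and 389 lower in Gata2 and 1285 higher and 1462 lower in WT. Gp6 and Tubb1 had LSK libraries with a count of 0, which limits what can be said of them.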
